A study of Mus musculus with 12 samples.

Results

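Lactate and ketone body handling was followed through 8 genes of 23420 counted in inguinal white adipose tissue (iWAT) of mice. The genes were chosen by name: Ldha, Ldhb and Ldhd of the lactate dehydrogenases, Slc16a1 and Slc16a3 of the monocarboxylate transporters, and Bdh1, Oxct1 and Acat1 of the ketone body pathway. The study asked how HIF2α, a transcription factor that is stabilised when oxygen is low, acts in fat cells upon cold exposure. iWAT of 12 male C57BL/6 mice, 10 weeks old, was sequenced, with 3 mice in each of 4 groups. All 12 mice carried HIF2a loxP/loxP alleles. The mice called WT had no Cre, whereas the mice called HIF2α AKO also carried Adipoq-Cre, which is active in adipocytes, so that other cells of the tissue keep their alleles. Thermoneutral (TN) mice were kept for 1 week at 30 °C and cold mice for 3 days at 4 to 6 °C, so temperature and length of exposure changed together.

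Lactate dehydrogenase is built from M subunits, encoded by Ldha, and H subunits, encoded by Ldhb. Both interconvert pyruvate and lactate, and enzyme rich in H subunits is typical of oxidative tissues such as heart, which burn lactate. Lactate and ketone bodies cross the plasma membrane together with protons through MCT1 (Slc16a1) and MCT4 (Slc16a3), the latter being common in glycolytic cells that export lactate. Ketone bodies are used in mitochondria through 3-hydroxybutyrate dehydrogenase (Bdh1), succinyl-CoA:3-ketoacid CoA transferase (Oxct1) and mitochondrial acetoacetyl-CoA thiolase (Acat1). White fat is a known source of lactate, and beige adipocytes, which arise in iWAT in the cold, are rich in mitochondria.

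Because the study deleted a factor that binds DNA, the bases before the start of 4 of the genes are shown. Ldha and Slc16a3 are textbook targets of the related factor HIF1α, and Ldhb and Slc16a1 are their counterparts in this set. Each run holds the 250 bases before a RefSeq start (GRCm38.p6) and is written 5′ to 3′ on the strand of the gene. Capitals mark the core of the hypoxia response element, ACGTG or GCGTG on either strand, where overlapping matches count as 1 place.
Ldha, chr7:46845554-46845803, plus strand: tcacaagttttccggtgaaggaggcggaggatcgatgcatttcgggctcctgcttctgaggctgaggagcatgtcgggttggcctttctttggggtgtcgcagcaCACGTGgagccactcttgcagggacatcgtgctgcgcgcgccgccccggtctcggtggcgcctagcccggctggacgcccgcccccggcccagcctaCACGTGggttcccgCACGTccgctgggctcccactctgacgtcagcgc
Ldhb, chr6:142507958-142508207, minus strand: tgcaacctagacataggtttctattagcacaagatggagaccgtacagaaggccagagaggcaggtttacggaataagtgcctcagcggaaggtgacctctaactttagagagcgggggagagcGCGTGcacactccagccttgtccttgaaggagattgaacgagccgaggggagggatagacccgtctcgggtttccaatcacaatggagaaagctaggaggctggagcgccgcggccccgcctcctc
Slc16a1, chr3:104638414-104638663, plus strand: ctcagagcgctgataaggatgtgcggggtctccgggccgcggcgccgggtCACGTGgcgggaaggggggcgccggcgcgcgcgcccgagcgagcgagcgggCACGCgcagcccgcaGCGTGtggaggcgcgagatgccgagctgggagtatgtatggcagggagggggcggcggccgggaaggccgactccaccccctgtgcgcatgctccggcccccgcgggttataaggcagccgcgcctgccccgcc
Slc16a3, chr11:120948817-120949066, plus strand: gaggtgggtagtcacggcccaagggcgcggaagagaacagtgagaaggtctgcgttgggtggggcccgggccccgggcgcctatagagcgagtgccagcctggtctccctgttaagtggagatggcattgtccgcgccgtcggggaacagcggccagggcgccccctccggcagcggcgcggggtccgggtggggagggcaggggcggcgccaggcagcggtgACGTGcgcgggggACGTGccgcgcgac

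Ldha has 2 starts in RefSeq, and the upstream one is printed. The printed Ldha run held 3 such places, Slc16a1 held 3, Slc16a3 held 2 and Ldhb held 1. Of 32851 mouse promoters cut in the same way, 38.6% held at least 1 place, 13.5% at least 2 and 4.65% at least 3. In Ldha, 2 of the 3 places formed the palindrome CACGTG, which is also the E-box. At least 1 CACGTG stood in 6.02% of promoters and at least 2 in 0.429%. The palindrome also formed 1 of the 3 places in Slc16a1. The bases before the second Ldha start, chr7:46846832-46847081, held 1 place and no CACGTG. The printed Ldha run also held TGACGTCA, the full cAMP response element, at bases 239 to 246, which stood in 1.55% of promoters and was not in the second run. These are matches of letters, and binding was not measured. RefSeq promoters were found for 7 of the 8 genes. Among the runs not printed, Ldhd and Oxct1 held 1 place each, and those before the Bdh1 starts held 1 and 0. G and C made up 76.4% of the Slc16a1 run and 73.6% of the Slc16a3 run, and the shares were not matched for this.

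Each library had between 22368316 and 35204631 counts on genes, of which 0.105% to 0.355% fell on the 8 genes. Ucp1, the uncoupling protein of thermogenic fat, lay between 0.204 and 3.85 CPM (reads per 1000000 counts of the scaled library) in TN libraries and between 2171 and 5897 CPM in cold libraries. By genotype, Ucp1 was 0.204 to 0.648 CPM in TN WT and 0.722 to 3.85 CPM in TN HIF2α AKO. Cold WT held 2171 to 3506 CPM and cold HIF2α AKO 4046 to 5897 CPM. Neither genotype difference had an adjusted p under 0.05 in edgeR. Epas1, which encodes HIF2α, was 373, 278 and 430.0 CPM in TN WT and 289, 394 and 360.1 CPM in TN HIF2α AKO. In the cold it was 576, 562 and 743 CPM in WT and 986, 743 and 749 CPM in HIF2α AKO, so the label HIF2α AKO did not go with a lower level. These counts sum all exons and the deleted exon is not given in the sources used here, so they do not test the deletion. In these libraries genotype rests on the labels. By RT-qPCR, the paper reported reduced Hif2a (Epas1) mRNA in adipose tissue of its HIF2α knockout mice. Summed markers of skeletal muscle reached 2018 CPM in TN HIF2α AKO mouse 2 and 1758 CPM in cold HIF2α AKO mouse 1, against at most 134 CPM elsewhere. Epithelial markers reached 214 CPM in TN WT mouse 3, against at most 10.6 CPM elsewhere.

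Upon cold exposure the lactate and ketone body genes did not move as a block. Ldhb, the H subunit gene, rose most, to 7.28-fold of its TN level over both genotypes, followed by Slc16a1 (3.12-fold), Acat1 (2.96-fold), Oxct1 (2.17-fold) and Ldha (1.92-fold). Ldhd rose by less and Bdh1, which encodes the dehydrogenase of 3-hydroxybutyrate, fell. Slc16a3, the MCT4 gene, did not pass the test. In all, 6 of the 8 genes were called higher and 1 lower in edgeR's quasi-likelihood test with an adjusted p under 0.05. Cold moved much of the transcriptome: 48.8% of 15306 tested genes were called, 24.8% higher and 24% lower. The median log2 fold change was 1.03 over the 8 genes and -0.05 over all tested genes.

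**Figure D1:**
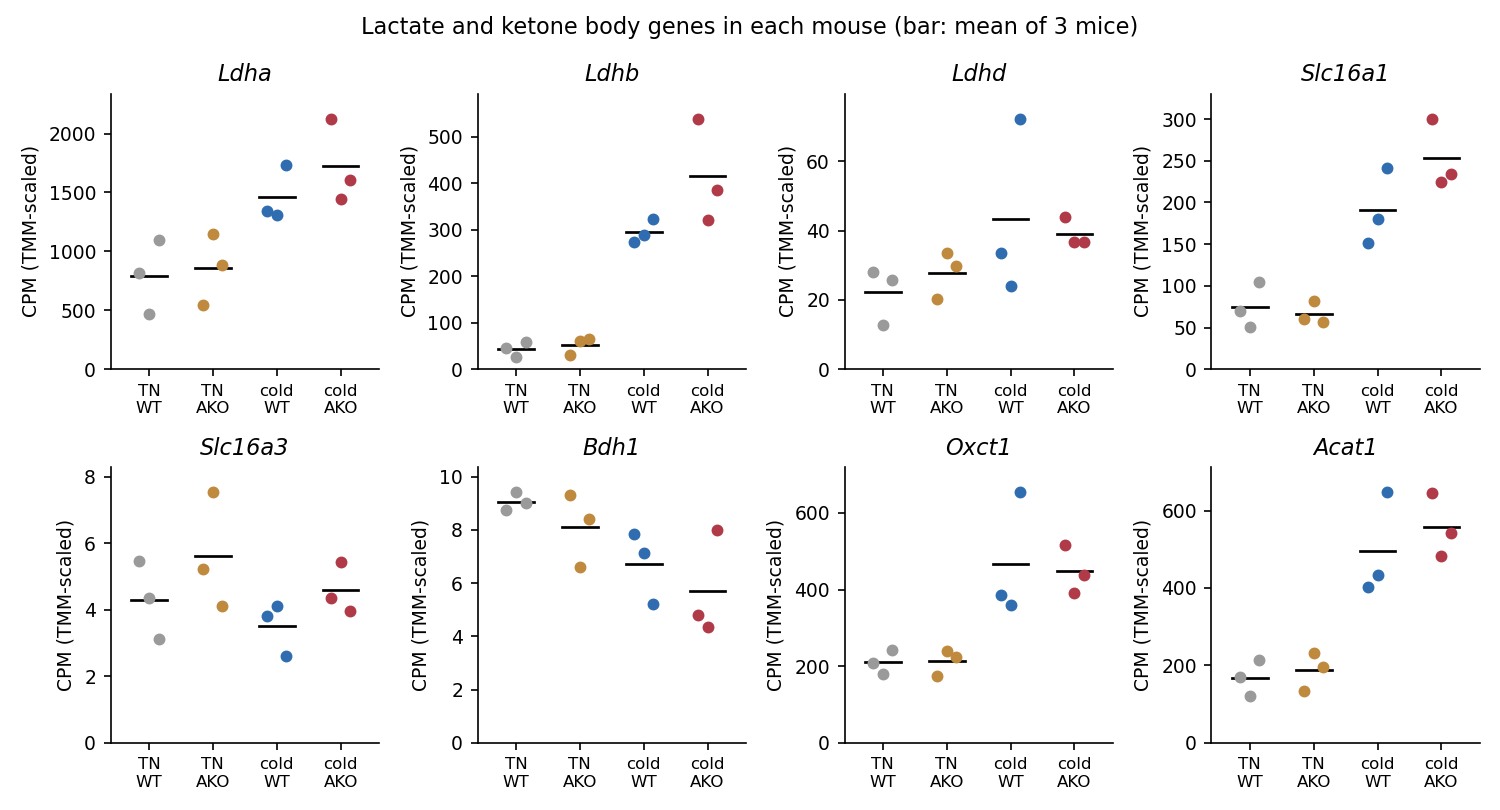
CPM (counts scaled to library size, linear axes from 0) of the 8 genes in each of 12 mice; points are mice and bars are means of 3 mice. For Ldha, Ldhb, Slc16a1, Oxct1 and Acat1 every cold mouse lies above every TN mouse, while Ldhd, Slc16a3 and Bdh1 overlap.

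Ldha, which encodes the M subunit, was by far the most abundant of the 8. It was 816, 468 and 1101 CPM in TN WT and 546, 1147 and 881 CPM in TN HIF2α AKO. In cold mice it was 1341, 1312 and 1737 CPM in WT and 2127, 1445 and 1608 CPM in HIF2α AKO. All 6 cold mice lay above all 6 TN mice, although TN WT mouse 2 and TN HIF2α AKO mouse 1 were low and widened the TN spread. Over both genotypes Ldha rose by a log2 fold change of 0.94 ± 0.23 (SE, n = 6 against 6; edgeR adjusted p = 0.00768). Within genotypes the difference was 0.88 ± 0.33 in WT (edgeR adjusted p = 0.0766, n = 3 against 3) and 1.01 ± 0.33 in HIF2α AKO (edgeR adjusted p = 0.0438). Those values lie on either side of the threshold, and the difference between them was 0.13 ± 0.46 (edgeR adjusted p = 1.00). In WT Ldha was called in 5 of 21 alternative analyses, among them DESeq2 (adjusted p = 0.0279) and limma voom (adjusted p = 0.0277). The WT value was 1.19 without TN WT mouse 3 and 0.59 without TN WT mouse 2. The call in HIF2α AKO was lost in 10 of 21 alternative analyses, among them the fit with the replicate number as a block (edgeR adjusted p = 0.0675).

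Ldhb, at a far lower level than Ldha, moved by more. It was 45.4, 27.3 and 59.0 CPM in TN WT and 31.7, 61.6 and 64.6 CPM in TN HIF2α AKO. Upon cold exposure it reached 273, 288 and 324 CPM in WT and 539, 321 and 385 CPM in HIF2α AKO. The lowest cold mouse was thus more than 4 times the highest TN mouse. The log2 fold change was 2.75 ± 0.33 in WT (edgeR adjusted p = 0.000711) and 2.98 ± 0.34 in HIF2α AKO (edgeR adjusted p = 0.000315). Over both genotypes it was 2.86 ± 0.24 (edgeR adjusted p = 1.49e-05), and 99.4% of tested genes had a smaller absolute change.

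Ldhd encodes the dehydrogenase of D-lactate, a mitochondrial enzyme that is unrelated to the L-lactate subunits. It was 27.9, 12.9 and 25.8 CPM in TN WT and 20.2, 33.7 and 29.8 CPM in TN HIF2α AKO. Cold mice gave 33.7, 24.1 and 72.4 CPM in WT and 43.9, 36.8 and 36.7 CPM in HIF2α AKO. TN and cold overlapped, and cold WT mouse 3 stood well above the others. Over both genotypes the log2 fold change was 0.72 ± 0.27 (edgeR adjusted p = 0.0464), but it was 0.43 without cold WT mouse 3 (edgeR adjusted p = 0.121), and the call was lost in 12 of 19 alternative analyses. Of the exonic bases of Ldhd, 42.2% are shared with Znrf1 on the opposite strand. The strand setting is not stated, so how reads over these bases were counted is not known.

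The transporters diverged. Slc16a1 was 69.4, 51.2 and 104 CPM in TN WT and 60.1, 82.1 and 57.0 CPM in TN HIF2α AKO. Cold exposure brought it to 152, 180.5 and 241 CPM in WT and 301, 224 and 234 CPM in HIF2α AKO. Every cold mouse lay above every TN mouse. The log2 fold change was 1.35 ± 0.26 in WT (edgeR adjusted p = 0.00590) and 1.93 ± 0.27 in HIF2α AKO (edgeR adjusted p = 0.000793).

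Slc16a3 stayed scarce, with 65 to 240 reads a library. It was 5.45, 4.35 and 3.10 CPM in TN WT, 5.22, 7.54 and 4.10 CPM in TN HIF2α AKO, 3.80, 4.10 and 2.61 CPM in cold WT and 4.36, 5.43 and 3.97 CPM in cold HIF2α AKO. The groups overlapped throughout. Over both genotypes the log2 difference of cold from TN was -0.30 ± 0.20 (edgeR adjusted p = 0.231), with a 95% interval of -0.73 to 0.14.

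The ketone body genes split between the first step and the later ones. Bdh1 was 8.73, 9.42 and 9.01 CPM in TN WT and 9.31, 6.59 and 8.41 CPM in TN HIF2α AKO. Cold libraries held 7.83, 7.13 and 5.23 CPM in WT and 4.79, 4.34 and 8.01 CPM in HIF2α AKO. All cold WT mice lay below all TN WT mice, whereas the HIF2α AKO groups overlapped. Over both genotypes Bdh1 fell by 0.46 ± 0.17 on the log2 scale (edgeR adjusted p = 0.0406). The call was lost in 10 of 19 alternative analyses, including the block on replicate number (edgeR adjusted p = 0.0605) and the fit without the 3 libraries holding muscle or epithelial transcripts (edgeR adjusted p = 0.0819).

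Oxct1, whose product activates acetoacetate and commits it to oxidation, was 209, 179.8 and 241 CPM in TN WT and 173, 239 and 225 CPM in TN HIF2α AKO. The cold groups had 386, 359 and 655 CPM in WT and 516, 391 and 438 CPM in HIF2α AKO. Again no cold mouse reached down to the TN range. The log2 fold change was 1.15 ± 0.23 in WT (edgeR adjusted p = 0.00692) and 1.08 ± 0.23 in HIF2α AKO (edgeR adjusted p = 0.0081). Of its exonic bases, 12.6% are shared with BC037032 on the opposite strand.

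Acat1, which splits acetoacetyl-CoA into acetyl-CoA and also serves isoleucine breakdown, was 170.4, 121 and 213 CPM in TN WT and 133, 232 and 196 CPM in TN HIF2α AKO. Cold mice showed 402, 434 and 648 CPM in WT and 646, 484 and 541 CPM in HIF2α AKO. The lowest cold mouse was far above the highest TN mouse. The log2 fold change was 1.55 ± 0.27 in WT (edgeR adjusted p = 0.00324) and 1.57 ± 0.27 in HIF2α AKO (edgeR adjusted p = 0.00232).

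Taking each genotype alone, 4 of the 8 genes (Ldhb, Slc16a1, Oxct1 and Acat1) were called in WT, where 21.3% of tested genes were called. In HIF2α AKO 5 were called, those 4 and Ldha, where 27% of tested genes were called. Over both genotypes the calls of Ldha, Ldhb, Slc16a1, Oxct1 and Acat1 held in 19 of 19 alternative analyses. The same 5 genes had no overlap between the 6 TN and the 6 cold mice, as did 24.6% of all tested genes.

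**Figure D2:**
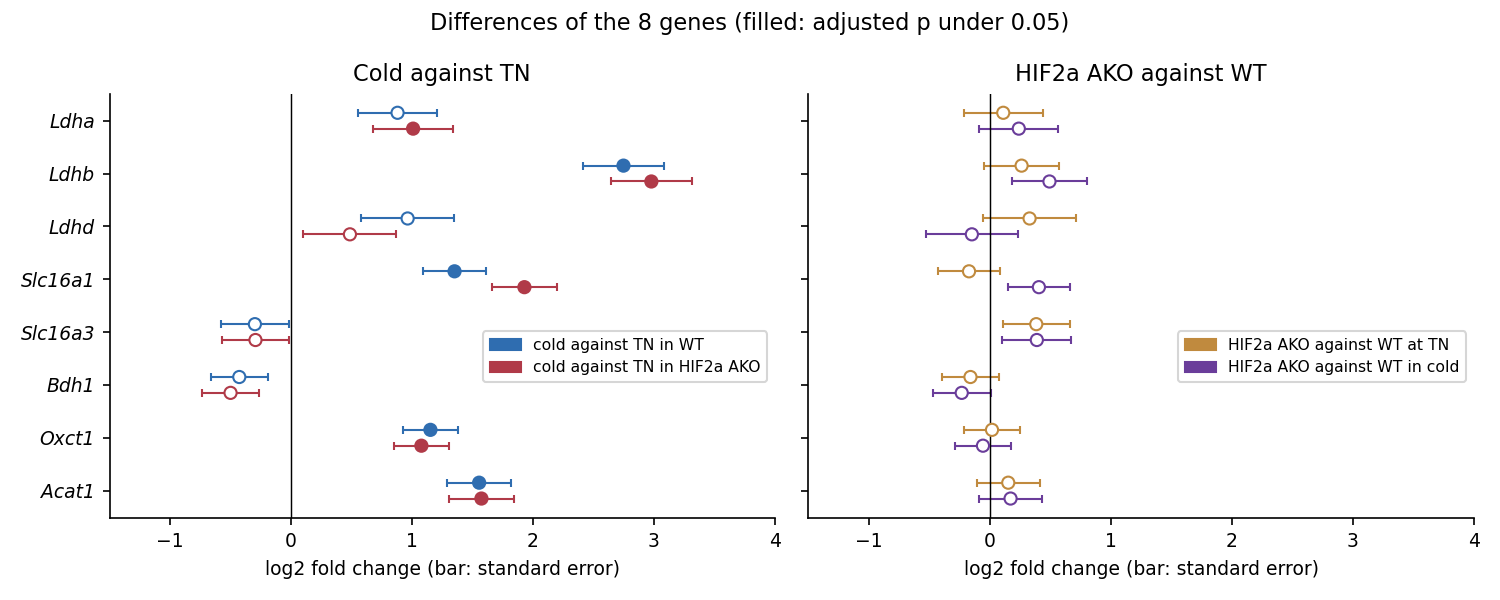
Log2 fold changes of the 8 genes with standard errors (bars), cold against TN on the left and HIF2α AKO against WT on the right, each with 3 mice a group; filled points passed an adjusted p under 0.05 in edgeR. Ldhb lies farthest right on the left panel, at 2.75 in WT and 2.98 in HIF2α AKO, and no point on the right panel is filled.

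Levels of different genes were set side by side per kilobase of the principal transcript. In TN WT the mean level of Ldha was 450.1 ± 179 CPM per kb (SD, n = 3). Oxct1 followed at 59.5 ± 8.72, Acat1 at 49.5 ± 13.5, Ldhb at 33.7 ± 12.2, Slc16a1 at 16.9 ± 6.07, Ldhd at 9.77 ± 3.57, Bdh1 at 2.90 ± 0.11 and Slc16a3 at 0.99 ± 0.27 CPM per kb. In cold WT Ldha was 828 ± 134 CPM per kb, and Ldhb had moved up to second place at 226 ± 20.1, above Acat1 at 145 ± 39.2 and Oxct1 at 132 ± 46.3. Acat1 and Oxct1 were within their spread of each other in both groups. Slc16a1 was 43.2 ± 10.2, Ldhd 19.1 ± 11.2, Bdh1 2.16 ± 0.43 and Slc16a3 0.81 ± 0.18 CPM per kb in cold WT.

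The balance between paired genes was then read within each library, where scaling between libraries plays no part. The log2 ratio of Ldhb to Ldha reads was -4.17, -4.10 and -4.22 in TN WT and -4.11, -4.22 and -3.77 in TN HIF2α AKO. After cold exposure it stood at -2.30, -2.19 and -2.42 in WT and -1.98, -2.17 and -2.06 in HIF2α AKO. The cold and TN mice did not overlap. The TN WT values were tight (SD 0.06) although Ldha and Ldhb each varied, while those of TN HIF2α AKO spread more (SD 0.23). Over both genotypes the ratio was higher by 1.91 on the log2 scale, or 3.76-fold (2-sided exact permutation test within genotype over 400 arrangements, p = 0.005, the smallest it can give; adjusted p = 0.01 over 4 tests). Per kilobase, Ldhb made up 7.03% ± 0.27 (SD, n = 3) of both transcripts in TN WT, 7.70% ± 1.18 in TN HIF2α AKO, 21.6% ± 1.37 in cold WT and 24.4% ± 1.22 in cold HIF2α AKO.

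The log2 ratio of Slc16a1 to Slc16a3 reads was 3.67, 3.55 and 5.06 in TN WT and 3.52, 3.44 and 3.79 in TN HIF2α AKO. In cold mice the values were 5.31, 5.45 and 6.51 in WT and 6.10, 5.36 and 5.88 in HIF2α AKO. TN WT mouse 3, the library with epithelial transcripts, was the TN mouse nearest to the cold range. The ratio was higher in the cold by 1.93, or 3.81-fold (exact permutation test, p = 0.005, adjusted p = 0.01). Per kilobase, the MCT1 transcript was already 93.9% ± 2.76 of both in TN WT and 98.0% ± 0.75 in cold WT.

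**Figure D3:**
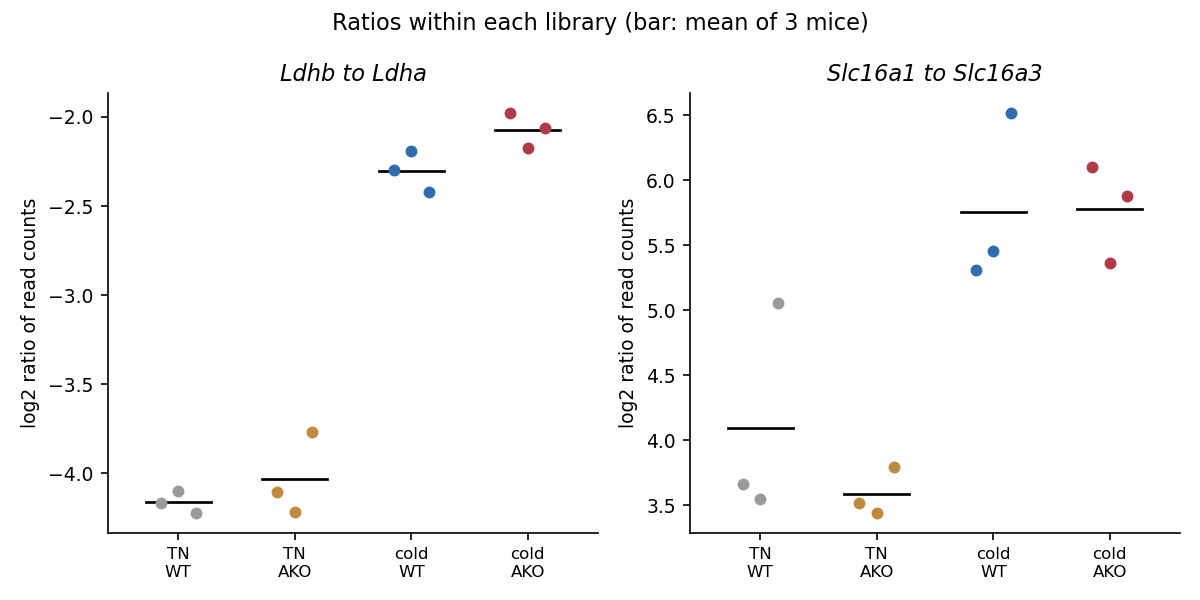
Log2 ratios of read counts within each library for Ldhb to Ldha (left) and Slc16a1 to Slc16a3 (right); points are mice, bars are means of 3 mice, and the axes do not start at 0. Cold mice lie between -2.42 and -1.98 on the left, TN mice between -4.22 and -3.77.

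iWAT is a mixture of cells, and in bulk RNA a change in the number of cells of a type and in their RNA cannot be told apart. The summed level of 8 adipocyte markers was 4997 to 13479 CPM in TN mice and 17427 to 34201 CPM in cold mice, without overlap, and 6 of the 8 markers were called higher, against 24.8% of all tested genes. None of the 8 was at 0 in any library. Summed markers of lymphocytes were 1019 to 1701 CPM in TN and 582 to 1026 CPM in cold mice, and 6 of 8 were called lower, against 24% of all tested genes. All 8 markers of beige and thermogenic fat were called higher, from a sum of 28.4 to 90.6 CPM in TN to 3350 to 8582 CPM in cold mice. Of the macrophage markers 3 of 10 were called lower, of the endothelial markers 3 of 8 higher, of the erythroid markers 2 of 2 higher, of the epithelial markers 1 of 7 lower and of the skeletal muscle markers none of 12. Set against the adipocyte markers, Ldhb was 4.09 to 6.09 CPM per 1000 CPM of markers in TN mice and 9.47 to 20.9 in cold mice, so all 6 cold mice stayed above all TN mice. On the same scale 3 of 6 cold mice were above the TN range for Slc16a1 and none below, and 3 were above and 1 below for Acat1. Ldha was 70.5 to 93.7 in TN mice and 50.8 to 82.3 in cold mice, with no cold mouse above the TN range and 3 below it. Oxct1, at 17.7 to 36.0 in TN and 16.2 to 20.6 in the cold, had none above and 2 below. For the other 3 genes all 6 cold mice lay below all TN mice. The marker sum itself rose without overlap, so a gene of unchanged CPM falls on this scale. How many of all tested genes separate in this way was not counted. Slc16a3 was 0.255 to 0.871 in TN and 0.0765 to 0.235 in the cold, and Bdh1 was 0.489 to 1.89 in TN and 0.153 to 0.409 in the cold. Ldhd was 2.12 to 3.07 in TN and 1.38 to 2.12 in the cold, so its direction turned from the rise in CPM, although the nearest mice nearly touched. The part of cell composition in these differences was not tested.

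The genotype comparison asked whether adipocyte HIF2α sets the level of these genes. None of the 8 was called between libraries labelled HIF2α AKO and WT, at TN, in the cold or over both temperatures, and none had an unadjusted p under 0.05. By DESeq2 the count was also 0 in each. Calls were rare across the transcriptome: 1 gene, or 0.00653% of those tested, was called in each of the 3 comparisons, and 2.91% (TN), 2.95% (cold) and 3.64% (both) had an unadjusted p under 0.05. In the cold the log2 difference of HIF2α AKO from WT was 0.49 ± 0.31 for Ldhb (95% interval -0.19 to 1.18), 0.41 ± 0.26 for Slc16a1 (-0.16 to 0.97) and 0.39 ± 0.28 for Slc16a3 (-0.24 to 1.01). For Ldha it was 0.24 ± 0.33 (-0.48 to 0.96), for Acat1 0.17 ± 0.26 (-0.40 to 0.74) and for Oxct1 -0.06 ± 0.23 (-0.56 to 0.44). Ldhd differed by -0.15 ± 0.38 and Bdh1 by -0.23 ± 0.24. These intervals leave room for differences of the size of those of many genes in the cold, so equal levels are not shown.

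At a looser threshold, an unadjusted p under 0.15 with an absolute log2 fold change above 0.2, Ldhb and Slc16a1 passed in the cold, where 8.98% of all tested genes did. The paper set these cut-offs for cold HIF2α AKO against cold WT with DESeq2, whereas here they were applied to edgeR values. The highest Ldhb value in the cold HIF2α AKO group was that of mouse 1, at 539 CPM, one of the libraries with muscle transcripts, whose part in the value was not tested. Slc16a1 was highest in the same mouse, at 301 CPM. Without that mouse the log2 difference was 0.26 for both genes (edgeR adjusted p = 1.00 for each), and for Slc16a1 it was also 0.26 without cold WT mouse 1 and 0.61 without cold WT mouse 3. Over both temperatures Ldhb (0.38 ± 0.22) and Slc16a3 (0.39 ± 0.20) passed, as did 7.99% of all tested genes. The Slc16a3 value was 0.25 without TN HIF2α AKO mouse 2 and 0.14 with limma voom. Applied to cold against TN in WT, the same threshold took in 7 of the 8 genes and 52.5% of all tested genes. At TN the differences of the 8 genes ran from -0.17 to 0.38, and none passed that threshold, as 8.63% of all tested genes did. The change of Slc16a1 upon cold exposure was larger in HIF2α AKO than in WT by 0.58 ± 0.37 (95% interval -0.23 to 1.38), which passed the looser threshold, as 8.81% of all tested genes did, but not the adjusted one. It was 0.27 without TN WT mouse 3, the library with epithelial transcripts, and 0.80 without TN WT mouse 2. No gene of the transcriptome was called for a difference in the cold response between genotypes, while 327, or 2.14%, had an unadjusted p under 0.05.

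The Ldhb to Ldha ratio was higher in HIF2α AKO than in WT by 0.18 on the log2 scale, 0.13 at TN and 0.23 in the cold (exact permutation test within temperature, p = 0.045, adjusted p = 0.06). All 3 cold HIF2α AKO mice lay above all 3 cold WT mice, the nearest pair being -2.17 and -2.19, while the TN groups overlapped. With 3 against 3 mice, the smallest 2-sided p of an exact permutation test is 0.1. The genotype difference of 0.18 does not pass the correction over 4 tests. It passed without TN HIF2α AKO mouse 2 (exact permutation test, adjusted p = 0.0133), the library richest in muscle transcripts. Leaving out each of the other mice gave adjusted p values of 0.06 to 0.147 by the same exact test, and the replicate block gave 0.208 by an exact sign-flip test. The difference did not pass when the 3 libraries with muscle or epithelial transcripts, TN HIF2α AKO mouse 2 among them, were all left out. The Slc16a1 to Slc16a3 ratio differed by -0.24 between genotypes (exact permutation test, p = 0.515).

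Other genes of the same pathways gave the surroundings of the 8. Of 19 genes listed, 14 were measured well enough to be tested. Mpc1 and Mpc2, the subunits of the carrier that brings pyruvate into mitochondria, rose by 2.06 ± 0.26 and 1.99 ± 0.28 on the log2 scale over both genotypes (edgeR adjusted p = 0.000170 and 0.000367). Mpc1 was 15.4 to 40.5 CPM in TN mice and 95.1 to 168 CPM in cold mice. Bsg, encoding basigin, the chaperone that MCT1 and MCT4 need to reach the membrane, rose by 0.94 ± 0.12 (edgeR adjusted p = 0.000202). Emb, encoding embigin, the related chaperone, fell by 0.47 ± 0.14 (edgeR adjusted p = 0.0171).

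In the lactate and pyruvate list, 4 of 8 tested genes were called higher and 2 lower, where 24.8% and 24% of all tested genes were. Beside those named, Slc16a8 rose by 0.90 ± 0.26 and Ldhal6b fell by 0.94 ± 0.22, both at about 1 CPM or less. Slc16a7, encoding MCT2, and Hcar1, the lactate receptor of adipocytes, were not called, at 0.10 ± 0.19 and 0.41 ± 0.18 (edgeR adjusted p = 0.700 and 0.0755). In the ketone body list 2 of 6 were called higher and 2 lower, not far from the same shares of all genes. Aacs and Acat2, which act on acetoacetate and acetoacetyl-CoA in the cytosol, rose by 1.46 ± 0.34 and 1.20 ± 0.29. Slc16a6, a transporter of ketone bodies, fell by 0.48 ± 0.11, and Hmgcll1 fell by 1.56 ± 0.37 from less than 1 CPM.

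Bdh2 and Hcar2, the receptor of 3-hydroxybutyrate, were not called, at -0.14 ± 0.17 and 0.08 ± 0.26. Ldhc, Slc5a8, Slc5a12, Oxct2a and Oxct2b were too low to test. Slc5a8, encoding a sodium-coupled carrier of lactate, was 2.87 CPM in TN WT mouse 3, the library with epithelial transcripts, and at most 0.09 CPM elsewhere. None of the 14 tested genes was called between genotypes at either temperature.

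**Figure D4:**
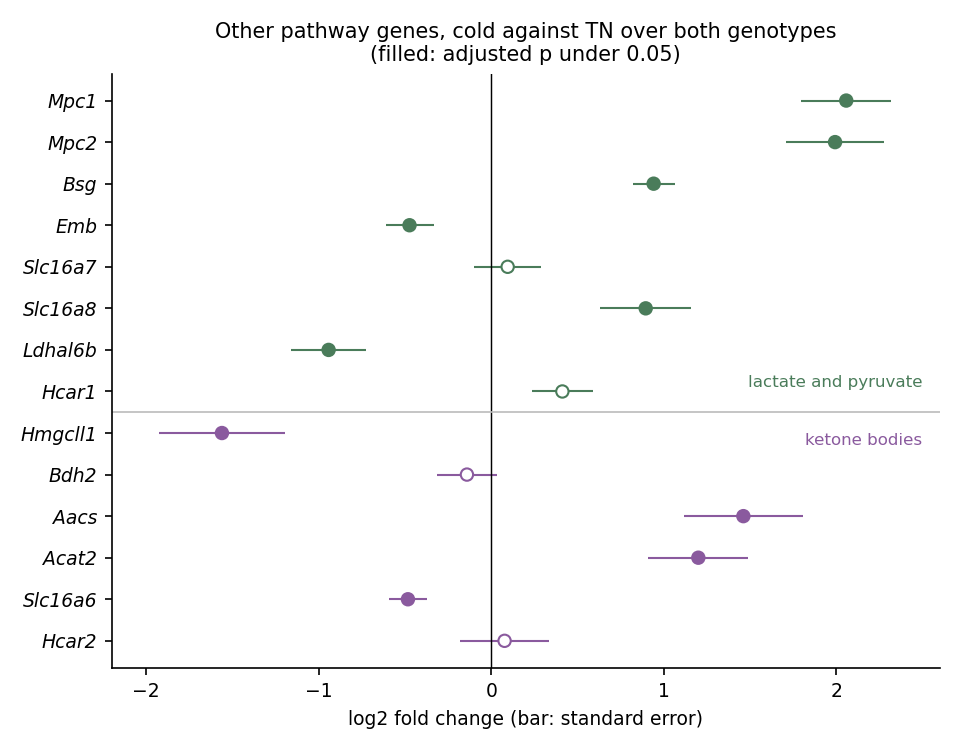
Log2 fold changes with standard errors (bars) of 14 further genes of lactate, pyruvate and ketone body handling, cold against TN over both genotypes (6 mice a side); filled points passed an adjusted p under 0.05 in edgeR. Mpc1 and Mpc2 lie near 2, and Hmgcll1 lies lowest at -1.56.

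The genes whose pattern over the 12 libraries lay nearest to each of the 8 were found among 13143 genes, by the root mean square difference of gene-centred log2 CPM. For Ldhb Idh3a was nearest (0.12). For Acat1 they were Acads (0.05) and Ndufs1 (0.08) and for Slc16a1 Ndufc1 and Mlycd (both 0.14). For Oxct1 they were Ptcd3 (0.08) and Cbr4 (0.09), and for Ldha Ppip5k1 (0.10) and Gpx4 (0.12). For Ldhd they were Jazf1 and Fam19a5, and for Bdh1 Tnfrsf18 and Coro2a. Among the 8 themselves the closest pair was Acat1 and Slc16a1 (0.20), followed by Ldha and Oxct1 (0.26). The most distant was Ldhb and Bdh1 (1.80). All points share the 12 libraries, so these distances describe the set and carry no test.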

How the data were processed

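Messenger RNA of iWAT from 12 mice was sequenced. The authors trimmed reads with Trim Galore 0.4.4, aligned them to GRCm38/mm10 with STAR 2.6.1d and deposited raw counts per gene from HTSeq-count 0.13.5. The annotation and the strand setting are not given in the sources used here. Between 21.9% and 27.0% of the counts in each library were listed outside genes and left out.

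Counts were fitted with edgeR 4.0.16 (R 4.3.3; TMM scaling; genes kept by filterByExpr, min.count 10 and min.total.count 15) as 1 factor of 4 groups, with quasi-likelihood tests. P-values were adjusted by Benjamini-Hochberg over the 15306 tested genes, and all 8 members passed the filter. CPM used TMM-scaled library sizes. Ratios of reads, with 0.5 added to each count, were compared by exact permutation. Groups follow the labels, which give 3 mice each. Both scripts were tested on simulated data. Alternatives were other scaling, filters, DESeq2 1.42.0, limma 3.58.1 voom, a replicate block, leaving out each library, only the 6 libraries compared, and the looser threshold.

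The 8 genes and all lists were chosen with earlier results of these data known. All 8 were named in every contrast. Further pathway genes were named where they were called upon cold exposure or were too low to test, and a few uncalled ones were added after their values were seen. For each gene called, the 2 genes of nearest pattern (mean count of at least 50) were named. A few genes that these lists and rules could cover are not reported here. Lengths and overlaps are from GENCODE M21. Hcar1 and Hcar2 stood under older symbols. Whether equal replicate numbers mark pairs of mice is not known. Of 18 pairs of libraries with the same number, 5 correlated above 0.1, and the correlations ran from -0.43 to 0.39. Pairs with different numbers were not set beside them, so these values cannot decide whether mice were paired. Replicate libraries differed by more than sampling noise.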

Additional observations from a re-analysis of the deposited data

How the results depend on the processing

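Of the calls upon cold exposure over both genotypes, those of Ldha, Ldhb, Slc16a1, Oxct1 and Acat1 held under each of 19 alternatives, with Ldhb between 2.70 and 3.00. Those of Ldhd (0.36 to 0.87) and Bdh1 (-0.63 to -0.38) did not. With the looser threshold, 7 of the 8 genes passed upon cold exposure in WT. Between genotypes 2 passed in the cold and 2 over both temperatures, and 1 passed for the difference in the cold response. With the replicate number as a block, the Ldhb to Ldha ratio (1.91) and the Slc16a1 to Slc16a3 ratio (1.93) no longer passed in the cold (exact sign-flip test, adjusted p = 0.0625 each), where the smallest unadjusted p is 0.03125. The block also ended the calls of Ldha in HIF2α AKO and of Ldhd and Bdh1 over both genotypes, and no other call of the 8 genes. Leaving out single mice moved the genotype difference in the Ldhb to Ldha ratio between 0.12 and 0.23, and without TN HIF2α AKO mouse 2 it passed (exact permutation test, adjusted p = 0.0133, with 0.06 to 0.147 without each other mouse and 0.208 with the block). That difference did not pass when the 3 libraries with muscle or epithelial transcripts were all left out.

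Only differences that were not called changed sign. Leaving out single mice moved the genotype difference at TN between -0.16 and 0.42 for Ldha, -0.38 and 0.14 for Slc16a1, -0.083 and 0.14 for Oxct1, and -0.037 and 0.36 for Acat1. In the cold it moved between -0.41 and 0.44 for Ldhd and between -0.19 and 0.27 for Oxct1. With voom, Ldhd was 0.25 and Oxct1 0.11 in the cold, and Slc16a3 was -0.076 at TN. Without a filter Oxct1 was -0.00243 at TN. Without the 3 libraries with muscle or epithelial transcripts, a choice made after the data were seen, Slc16a3 was -0.076 between genotypes at TN and 0.012 upon cold exposure in HIF2α AKO. The causes were not tested. Slc16a3 and Bdh1, with 65 to 343 reads a library, and 3 mice a group limit what could be seen.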
